A study of Arabidopsis thaliana with 16 samples.

Results

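The HSFA1b peaks described here were listed under heat stress (HS) alone and lay away from any annotated gene start. They were chosen on the deposited peak lists of the native promoter line: an HS interval on chromosomes 1 to 5 was kept when it overlapped no non-stress (NS) interval by 1 bp and when its summit was more than 250 bp from the transcription start site (TSS) of every annotated gene, coding or not. This gave 465 peaks. They made up 54.3% of the 856 heat-only peaks (exact 95% interval 50.9 to 57.7%), 36.9% of the 1259 HS peaks of that line on the chromosomes, and a small part of the 35133 peaks in the whole series. Of all 1259 HS peaks, 68.0% were heat-only; this share was fixed by the rule and is given as background. In its own selection of targets the study set a minimum fold enrichment and treated pericentromeric peaks, and broad ones over strongly transcribed genes, as false positives. The rule used here applied none of these filters, so such peaks can be among the members.

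HSFA1b belongs to the A1 clade of heat shock factors of Arabidopsis thaliana, which act as master activators of the heat response. Under heat, these factors form trimers and bind heat shock elements (HSEs), arrays of inverted GAA units, classically in promoters close to the TSS, and switch on genes for chaperones and for further heat shock factors. Chaperones such as HSP101, HSP90, HSP70 and small heat shock proteins keep other proteins folded or return them to the folded state, and BiP proteins do so in the endoplasmic reticulum.

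Chromatin immunoprecipitation with sequencing (ChIP-seq) was carried out on leaves of 5-week-old plants, in 16 samples that formed 8 groups of 2. The fusion lines were NP:HSFA1b, Col-0 carrying genomic HSFA1b fused to eYFP under its own promoter (1 line, NP:HSFA1b_6, precipitated with an antibody to GFP), and 35S:HSFA1b, in which the strong and broadly active 35S promoter drives an RFP fusion (precipitated with an antibody to RFP). Each was kept at 37 °C and 86% relative humidity for 30 min (HS) or at 23 °C and 60% relative humidity (NS), and each was set against control plants without the fusion that had the same treatment. Both replicates of a group were pooled before peak calling, so each list is 1 call, no spread between plants can be given, and every test below compares intervals and not plants.

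The depth of the pools differed. After removal of duplicates the NP HS pool held 2438702 ChIP fragments and 1139036 control fragments, and the NP NS pool 6783161 and 1686242, so the HS pool had 0.360 times the ChIP fragments of the NS pool. The 35S HS pool held 13481546 ChIP and 4863174 control fragments, and the 35S NS pool 19579327 and 12760222. The native lists covered 0.421% (HS) and 0.408% (NS) of the chromosomes, and the 35S lists 35.9% (HS) and 43.5% (NS). A peak that the NS list lacks is not shown to be free of HSFA1b at 23 °C, since a site below the caller's limit is not listed. The lowest background the caller allowed was 3.59 scaled control fragments in the HS list and 10.6 in the list of the deeper NS pool.

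Summit sequences were read from 50 bp before to 50 bp after the summit in the TAIR10.1 assembly of RefSeq. The 11 members with an HSE are shown first because they carry the recognised binding element of the factor, written GAANNTTCNNGAA and searched on both strands with no mismatch. Capitals mark the HSE, all letters are the forward strand of the chromosome, and windows that touch an annotated UTR are shortened to the element with up to 8 bases on either side. In order of fold enrichment they read:

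AGL67 intron, chr1:29307205-29307305: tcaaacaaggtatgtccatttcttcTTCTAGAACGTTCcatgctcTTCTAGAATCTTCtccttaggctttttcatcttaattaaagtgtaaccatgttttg
AGP15 upstream, chr5:3783079-3783179: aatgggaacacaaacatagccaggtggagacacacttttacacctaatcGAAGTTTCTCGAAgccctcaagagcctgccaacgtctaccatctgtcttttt
HSP90.1 upstream, chr5:21352254-21352281: aacgaaaaGAACTTTCTGGAAttcgttt
AT1G51970 upstream, chr1:19320401-19320501: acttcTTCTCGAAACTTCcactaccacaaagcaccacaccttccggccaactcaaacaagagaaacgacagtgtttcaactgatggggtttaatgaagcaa
AT5G00985 downstream, chr5:1344054-1344154: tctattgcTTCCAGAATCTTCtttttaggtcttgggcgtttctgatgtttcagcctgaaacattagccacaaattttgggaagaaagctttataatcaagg
DER1 5′ UTR, chr4:14444825-14444853: aaaaaaaaTTCTGGAACTTTCgagcttct
SPDS3 upstream, chr5:21533516-21533616: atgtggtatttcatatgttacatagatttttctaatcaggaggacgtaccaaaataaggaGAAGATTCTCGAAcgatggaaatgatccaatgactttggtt
GATA3 exon, chr4:16554484-16554584: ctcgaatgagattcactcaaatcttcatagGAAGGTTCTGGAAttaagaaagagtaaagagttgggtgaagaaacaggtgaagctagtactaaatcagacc
FUT12 exon, chr1:18393740-18393768: gggtcctcGAAGATTCGAGAAaacaccca
AT2G04135 upstream, chr2:1393794-1393894: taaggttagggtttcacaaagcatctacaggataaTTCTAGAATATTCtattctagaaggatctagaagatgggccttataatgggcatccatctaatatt
AT5G05480 exon, chr5:1623690-1623790: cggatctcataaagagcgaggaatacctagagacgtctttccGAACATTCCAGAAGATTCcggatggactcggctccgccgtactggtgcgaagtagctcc

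The AGL67 window holds 2 separate HSEs, and the AT5G05480 window holds 2 that overlap and run together. The distance between the centre of the HSE and the summit was 1 bp at AGL67, 5 bp at AGP15 and 2 bp at AT5G05480, and it reached 39 bp at AT1G51970.

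Other stress-related elements are shown for 3 further members, picked as the strongest with a G-box (CACGTG, bound by many bZIP and bHLH factors) or a UPRE (TGACGTGA or TGACGTGG, an element of the unfolded protein response). Capitals mark the UPRE at AT1G29640 and MPK15, whose windows also hold a G-box, and the G-box at AT3G02405.

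AT1G29640 downstream, chr1:10354028-10354128: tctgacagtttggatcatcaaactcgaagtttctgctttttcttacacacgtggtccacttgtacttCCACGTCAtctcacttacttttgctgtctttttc
AT3G02405 non-coding RNA gene, chr3:3589428-3589528: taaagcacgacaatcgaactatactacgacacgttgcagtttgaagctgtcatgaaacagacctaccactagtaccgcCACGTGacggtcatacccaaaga
MPK15 upstream, chr1:27699088-27699188: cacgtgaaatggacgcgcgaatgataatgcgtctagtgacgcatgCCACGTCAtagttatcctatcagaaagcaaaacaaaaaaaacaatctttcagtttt

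Most of the 465 peaks were narrow and of moderate strength. Fold enrichment, the summit pileup over the control background as the authors' peak caller gave it, ranged from 1.11 to 13.3 with a median of 3.71 and quartiles of 3.15 and 4.54. The summit pileup had a median of 20 fragments (12 to 1234) and the width a median of 295 bp (198 to 2969 bp). A fold enrichment of at least 3 was reached by 372 peaks, of at least 5 by 89 and of at least 7 by 14. For comparison, the 391 heat-only peaks at TSSs had a median fold enrichment of 4.58, the 214 HS peaks shared with the NS list and away from TSSs 4.80, and the 463 NS-only peaks away from TSSs 2.65. The lowest backgrounds were 3.59 (HS) and 10.6 (NS), so fold enrichments of the HS and NS lists are not on 1 scale. The median −log10 q of the caller was 4.55 both for the 465 peaks and for the NS-only peaks. The median pileup of the NS-only peaks was 37 fragments. These values belong to the calls that chose the peaks and are not tested.

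The distance to the nearest TSS had a median of 1001 bp and reached 32314 bp. It was at most 500 bp for 21.7% of the peaks, 501 to 1000 bp for 131, 1001 to 2000 bp for 118, 2001 to 5000 bp for 86 and over 5000 bp for 29, of which 27 lay in the pericentromere. The members nearest to the 250 bp limit were those of AT2G37805, AT5G18475 and AT4G31805, at 251 bp, 253 bp and 254 bp from the TSS and with fold enrichments of 5.23, 5.23 and 3.03. The heat-only peaks that just missed it were at UCNL (249 bp, 4.80-fold), AT5G57910 (250 bp, 3.79-fold) and HSP18.2, a small heat shock protein gene (250 bp, 7.19-fold). The members nearest to an NS peak lay 72 bp, 98 bp and 156 bp from it, and the shared peaks with the least overlap had 9 bp, 26 bp and 29 bp in common with it. In all, 21 members lay within 500 bp of an NS peak. When the starts of all annotated transcripts were counted and not only gene starts, 27 members were within 250 bp of a start.

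**Figure D1:**
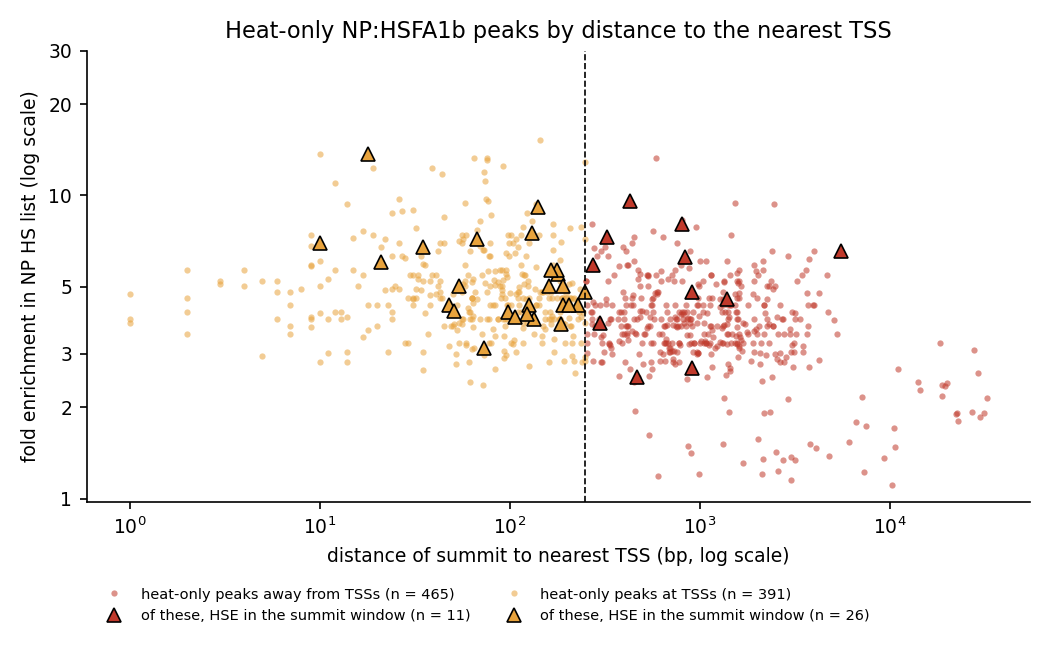
Fold enrichment of the 856 heat-only NP:HSFA1b peaks (vertical axis, log scale) against the distance of the summit to the nearest TSS in bp (horizontal axis, log scale); the dashed line is the 250 bp limit, and outlined triangles are peaks with an HSE in the summit window. The median fold enrichment is 3.71 to the right of the limit and 4.58 to its left, and 27 of the 29 summits over 5000 bp away are pericentromeric.

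The strongest peak of the set was in a coding exon of CYP78A7 (AT5G09970), a cytochrome P450 gene, at chr5:3112378-3112736, with a pileup of 77 fragments and a fold enrichment of 13.3, 586 bp from the TSS. AGL67, a MADS-box transcription factor gene, followed with a peak in an intron (43 fragments, 9.59-fold), and BXL2, a beta-xylosidase gene of the cell wall, with a peak in a coding exon at chr1:565431-565692, 1538 bp from its start (49 fragments, 9.47-fold). The next peaks lay between genes. They were 2442 bp upstream of the pseudogene AT3G23085 (9.37-fold), 806 bp upstream of AT5G55970 (8.28-fold), 270 bp upstream of the long non-coding RNA gene AT1G09573 (8.07-fold) and 801 bp upstream of AGP15, an arabinogalactan protein gene (8.07-fold).

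LPR2, a multicopper oxidase gene of the root response to low phosphate, had an intronic peak at 7.85-fold. NPC3, a phospholipase C gene, had a peak 1450 bp upstream at 7.41-fold. Upstream peaks also stood at OXS2 (7.27-fold), a zinc finger factor of the oxidative stress response, GAD4 (6.98-fold), a glutamate decarboxylase gene, and LBD41 (6.76-fold), a gene known as a marker of low oxygen. RHA1, which codes for a Rab GTPase, had a peak in the 5′ UTR at 6.73-fold. The others among the 20 highest were at AT3G27910 (7.63-fold), AT5G47830 (7.32-fold), AT1G20430 (7.31-fold), HSP90.1 (7.30-fold), AT1G27090 (6.98-fold), AT4G39840 (6.76-fold) and AT1G29640 (6.54-fold). Of these 20 summits 12 were between genes, 3 had an HSE, and none was pericentromeric.

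The pericentromere held 57 members (12.3%), and most of the weakest peaks were among them. Their median fold enrichment was 1.90, against 3.86 for the 408 members outside, and 32 of the 37 members with a fold enrichment under 2 were pericentromeric. In the intron and exon peaks of AT2G08986, named here after its values were seen, pileups of 331 to 575 fragments stood on backgrounds of 218 to 430.3 and gave fold enrichments of 1.21 to 1.51. Of the 5 widest members, those near AT3G33058 (1474 bp wide, 1.11-fold) and AT4G06708 (1195 bp, 1.34-fold) were pericentromeric. The other 3 lay over the genes of HSP90.1 (2969 bp, 1.91-fold) and BIP2 (2645 bp, 5.62-fold) and at AT5G01750 (1410 bp, 4.17-fold).

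Summits fell almost evenly inside and outside genes. Of the 465, 249 (53.5%) were inside an annotated gene and 216 (46.5%) between genes. A coding exon held 125 (26.9%), a 3′ UTR 50 (10.8%), an intron 30 (6.45%), a 5′ UTR 24 (5.16%), other UTR sequence 6, a non-coding RNA gene 8 and a pseudogene 6. Among the summits between genes, 56 had gene starts on both sides, 36 had 3′ ends on both sides, and 124 had a start on 1 side and a 3′ end on the other.

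The share inside genes was compared only with the classes that share the distance rule. It was 53.5% for the heat-only peaks and 69.1% for the NS-only peaks (difference −15.6 points, 95% interval −21.6 to −9.32, 2-sided Fisher's exact test with Benjamini-Hochberg adjustment over 19 comparisons, adjusted p = 1.77e-05). With peaks of at least 3-fold enrichment in both lists this difference was −0.0452 points (adjusted exact p = 1.00) and the call was lost. That filter also changed which peaks count as heat-only, giving 442 heat-only peaks away from TSSs and 130 NS-only ones, so strength and membership cannot be told apart in this loss. Over 7 alternatives the adjusted exact p ranged from 4.97e-06 to 1.00. Against the shared HS peaks the shares were 53.5% and 56.1% (adjusted exact p = 0.628). A summit within 250 bp of a gene's 3′ end was found for 21.5% of the heat-only peaks and 30.7% of the NS-only peaks (difference −9.16 points, 95% interval −14.7 to −3.52, adjusted exact p = 0.00793). It was 17.8% for the shared peaks (adjusted exact p = 0.413 against the heat-only peaks). The 3′ end difference lost its call with peaks of at least 2-fold enrichment outside the pericentromere (adjusted exact p = 0.0541) and with a 500 bp limit (adjusted p = 0.0521), and over 8 alternatives its adjusted p went down to 0.00225.

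**Figure D2:**
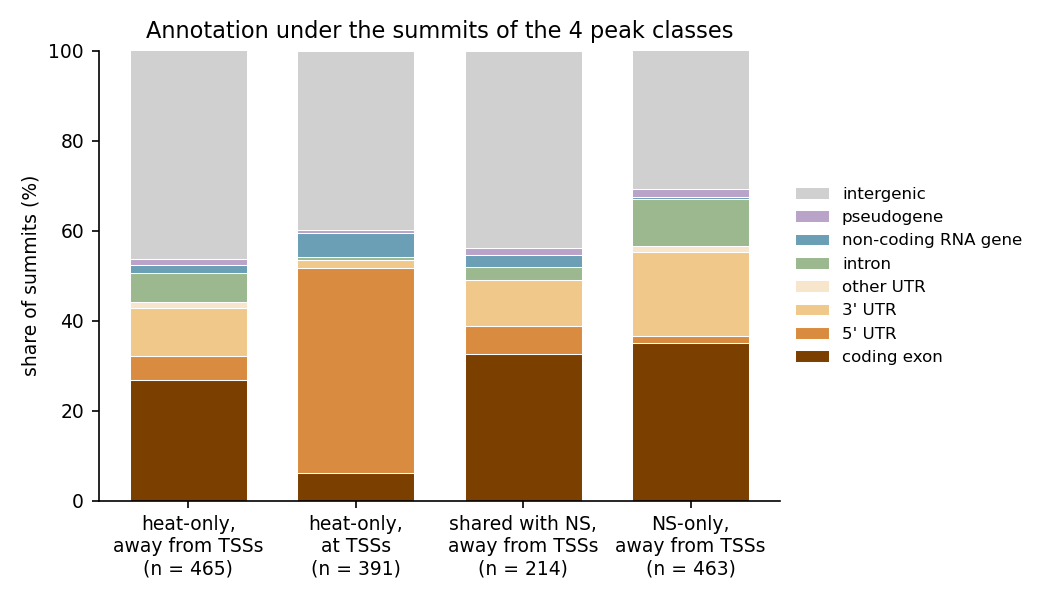
Share of peak summits (vertical axis, %) by the annotation under the summit, for the heat-only peaks away from TSSs and the 3 classes they are compared with; n is the number of peaks. Coding exons held 26.9% of the 465 heat-only peaks away from TSSs and 35.0% of the NS-only peaks, and space between genes 46.5% and 30.9%.

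HSEs were rarer here than in heat-only peaks at TSSs. An HSE with no mismatch stood in 11 of 465 windows (2.37%), against 26 of 391 (6.65%) at TSSs (difference −4.28 points, 95% interval −7.38 to −1.53, adjusted exact p = 0.00871). This call was lost with windows of 51 bp (adjusted exact p = 0.480), with the 2-unit form (adjusted p = 0.0504) and with the 2-fold filter outside the pericentromere (adjusted p = 0.0541), and over 11 alternatives the adjusted p ranged from 0.00186 to 0.480. In windows 1000 bp to either side of the same summits the HSE share was 0.215%, and in all windows of the chromosomes 0.195%, given as descriptions. Against the shared peaks (2.80%) and the NS-only peaks (0.432%) the adjusted exact p was 0.793 and 0.0585.

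With 1 mismatch allowed, HSE matches were more frequent in the heat-only than in the NS-only peaks. At least 8 of the 9 fixed bases, perfect HSEs included, were found in 74 windows (15.9%), against 4.54% of the NS-only peaks. The difference was 11.4 points (adjusted exact p = 1.52e-07), the lowest p of 11 alternatives to the perfect form, which was not called. Over these other forms, windows and filters the adjusted exact p reached 0.941 and the sign did not change. This form was not compared at equal strength, and among members from 2 to under 3-fold its share was 7.14%. The part of strength in the difference was not tested. Matches of at least 8 bases gathered at the summit. They were found 0 to 49 bp from it in 17.6% of the heat-only peaks away from TSSs, in 24.6% of those at TSSs, in 16.4% of the shared peaks and in 4.97% of the NS-only peaks, and 250 to 299 bp away in 2.80%, 6.65%, 5.14% and 4.10% of them.

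**Figure D3:**
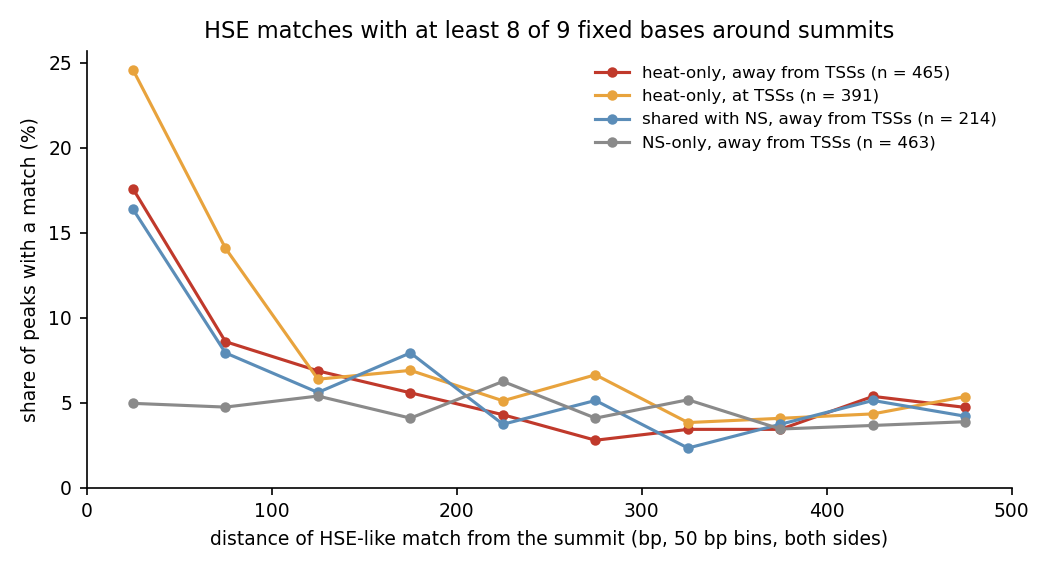
Share of peaks (vertical axis, %) with an HSE match of at least 8 of 9 fixed bases, by the distance of the match from the summit in 50 bp bins (horizontal axis, bp, both sides together), for the 4 peak classes. The 3 classes of HS peaks start at 16.4 to 24.6% in the first bin and the NS-only peaks at 4.97%.

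Within the set, matches of at least 8 bases were more frequent in the stronger peaks. They stood in 30 of 89 windows (33.7%, exact 95% interval 24.0 to 44.5%) with a fold enrichment of at least 5, in 20 of 89 (22.5%) from 4 to under 5, in 15 of 194 (7.73%, 4.39 to 12.4%) from 3 to under 4 and in 4 of 56 (7.14%) from 2 to under 3. Below 2 they stood in 5 of 37 (13.5%). By distance they were found in 27.7% of the summits at most 500 bp from a TSS, 16.8% of the 131 at 501 to 1000 bp, 10.2% of the 118 at 1001 to 2000 bp and 11.6% of the 86 at 2001 to 5000 bp. By position, they stood in 10 of the 24 summits in a 5′ UTR (41.7%), in 16.2% of those between genes, in 13.6% of those in coding exons and in 5 of the 50 in 3′ UTRs.

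The 11 members with an HSE had a median fold enrichment of 5.89, against 3.71 for the 454 without. Besides AGL67 and AGP15, HSP90.1 had a peak 326 bp upstream of its TSS, in the 3′ UTR of the neighbouring gene MEF1 (49 fragments, 7.30-fold). HSP90.1 codes for the heat-induced cytosolic HSP90 chaperone. DER1, which codes for a derlin of endoplasmic reticulum-associated protein degradation, had one in its 5′ UTR (26 fragments, 5.89-fold). SPDS3, a gene of polyamine synthesis, had a peak 907 bp upstream (4.80-fold). Coding exons of GATA3, a zinc finger transcription factor gene (4.54-fold), and FUT12, a fucosyltransferase gene (3.79-fold), held 1 each. The remaining HSE members were 5535 bp upstream of AT1G51970 (6.54-fold), 833 bp downstream of the start of the non-coding gene AT5G00985 (6.25-fold), 906 bp upstream of AT2G04135 (2.69-fold) and in a coding exon of AT5G05480, 466 bp upstream of the cohesin gene SYN1 (2.52-fold).

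The G-box stood in 23 windows (4.95%), against 1.72% of the flanking windows and 1.11% of all windows. It was in 8.70% of the heat-only peaks at TSSs (adjusted exact p = 0.0907), 7.94% of the shared peaks (adjusted p = 0.252) and 3.46% of the NS-only peaks (adjusted p = 0.413). In windows of 100 bp to either side the G-box difference was −7.47 points from the peaks at TSSs (adjusted exact p = 0.00436) and −7.03 points from the shared peaks (adjusted p = 0.0152). The adjusted exact p of these G-box comparisons ranged from 0.00213 to 0.360 over 9 alternatives against the peaks at TSSs and from 2.98e-04 to 0.858 against the shared peaks. The UPRE stood in 5 windows (1.08%), against 3.07% at TSSs (adjusted exact p = 0.102), 1.40% of the shared peaks (adjusted p = 0.751) and 0.432% of the NS-only peaks (adjusted p = 0.536).

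Among elements that were only described, the W-box (TTGACC or TTGACT), bound by WRKY factors, stood in 15.9% of the 465 windows, 12.5% of the flanks and 10.1% of all windows. The 2-unit HSE (GAANNTTC or TTCNNGAA) stood in 18.1%, 6.67% and 7.70%. For the stress response element AGGGG these shares were 3.44%, 4.30% and 4.87%, for the evening element AAATATCT 0.645%, 0.968% and 1.20%, and for the CArG box, the element of MADS-box factors, 0.645%, 0.645% and 0.593%.

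The overexpression line gave a readout of the same intervals that the rule did not use, from other plants, libraries and another antibody. Of the 465 members, 241 (51.8%) overlapped a 35S HS peak and 367 (78.9%) a 35S NS peak, 233 overlapped both and 90 neither. Of all 1259 NP HS peaks 58.5% overlapped a 35S HS peak and 87.7% a 35S NS peak. These shares stand beside lists that cover 35.9% (HS) and 43.5% (NS) of the chromosomes, so an overlap of 1 bp is a loose criterion.

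Overlap with the 35S HS list was 51.8% for the members, 58.6% for the heat-only peaks at TSSs (adjusted exact p = 0.102), 62.6% for the shared peaks (adjusted p = 0.0316) and 55.1% for the NS-only peaks (adjusted p = 0.413). The difference from the shared peaks kept its direction but not its call in each of 9 alternatives (adjusted exact p 0.0726 to 0.941). By summits within 100 bp, the 35S HS list matched 15.3% of the members, 27.4% of the peaks at TSSs, 19.2% of the shared peaks and 8.86% of the NS-only peaks.

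Overlap with the 35S NS list was lower for the members than for the heat-only peaks at TSSs (78.9% and 90.8%, difference −11.9 points, 95% interval −16.5 to −7.10, adjusted exact p = 1.77e-05). This call held in all 9 alternatives, whose adjusted exact p went from 7.76e-15 to 0.00359. It was also lower than for the shared peaks (78.9% and 92.5%, difference −13.6 points, 95% interval −18.4 to −8.06, adjusted exact p = 2.93e-05). That call was lost when only 35S peaks of at most 1000 bp were used (−0.800 points, adjusted exact p = 0.855). Against the NS-only peaks the order depended on the measure. By overlap the shares were 78.9% and 83.6% (adjusted exact p = 0.134), whereas a 35S NS summit stood within 100 bp of 25.2% of the heat-only summits and of 13.6% of the NS-only summits (adjusted p = 6.16e-05); the adjusted p ranged from 1.12e-05 to 0.941 over 9 alternatives.

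**Figure D4:**
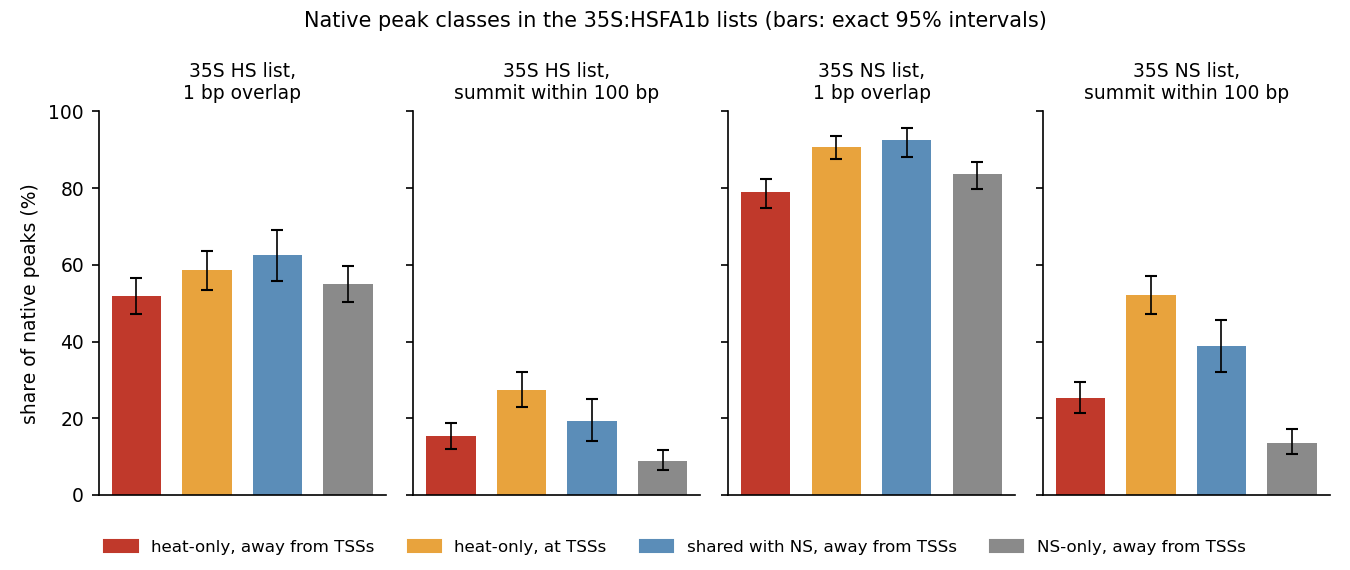
Share of native peaks (vertical axis, %) that overlap a 35S:HSFA1b peak by 1 bp or have a 35S summit within 100 bp, for the 35S HS and 35S NS lists; bars are the 4 native peak classes in the order of the legend and whiskers are exact 95% intervals of counting error. The heat-only peaks away from TSSs reach 51.8% by overlap and 15.3% by summits in the 35S HS list, and 78.9% and 25.2% in the 35S NS list.

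By strength, the 35S HS list overlapped 24.3% of the 37 members under 2-fold, of which 86.5% were pericentromeric. Above that it was 53.6% from 2 to under 3-fold, 52.1% from 3 to under 4-fold, 57.3% from 4 to under 5-fold and 56.2% at 5-fold or more. The 35S NS list overlapped 67.6% of the members under 2-fold, 42 of the 56 from 2 to under 3-fold, 76.3% from 3 to under 4-fold, 85.4% from 4 to under 5-fold and 85.4% at 5-fold or more. By position, the 35S HS list overlapped 36 of the 50 summits in 3′ UTRs (72.0%), 51.2% of those in coding exons, 48.1% of those between genes and 12 of the 30 in introns (40.0%). Of the 11 members with an HSE, 5 overlapped a 35S HS peak and 9 a 35S NS peak. The AGL67 and AT2G04135 peaks overlapped neither.

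A group of members lay inside genes of the heat response. The lists used were made from words in the RefSeq names: 18 heat shock factor genes, 265 genes of heat shock proteins and co-chaperones and 34 genes of folding in the endoplasmic reticulum, with BiP genes in the last pair of lists. Of the 211 protein-coding genes that held a member, 17 (8.06%) were in the heat shock protein list, against 0.966% of all 27444 protein-coding genes. For the heat shock factors it was 4 genes (1.90%, against 0.0656%) and for folding in the endoplasmic reticulum 3 (1.42%, against 0.124%). Among the 331 protein-coding genes with the nearest TSS the shares were lower, at 15 (4.53%), 1 (0.302%) and 3 (0.906%) for the heat shock proteins, factors and folding genes. Other lists stood near or under their share of all genes: transcription factors 3 (1.42%, against 2.60%), ribosomal proteins 1 (0.474%, against 1.25%), and light harvesting and the ubiquitin and proteasome genes 0 (against 0.222% and 1.48%). Of the 225 genes of any kind that held a member, 6 (2.67%) were long non-coding RNA genes, against 9.18% of all genes. Antisense RNA genes were 0, against 0.208%. Both host counts were limited by construction, so they show no depletion. A summit inside both a coding and a non-coding gene was given to the coding gene. The rule also removed summits near the TSSs of non-coding genes. By nearest TSS the shares were 30 of 418 (7.18%) and 1 of 418 (0.239%). These are counts without a test. Counting within 1 kb, 37 members stood at 27 of these heat and folding genes, and 30 of the 37 had the summit inside the gene.

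Heat shock factor genes carried 5 of these members. HSFA4A (HSF A4A in RefSeq) had a peak in its 5′ UTR, 472 bp from the TSS (27 fragments, 5.30-fold). HSFC1 had one in a coding exon (18 fragments, 4.14-fold) and HSFB2A one in its 3′ UTR (20 fragments, 3.99-fold). HSFA2 and HSF4 are named after their values were seen. HSFA2, the heat-induced factor that prolongs the response, had a peak in its 3′ UTR (17 fragments, 3.06-fold), 2164 bp from the TSS, and a stronger HS peak elsewhere at the gene (15.5-fold), which also had an NS peak (7.92-fold). HSF4, a class B factor gene, had a peak downstream of its 3′ end (2.68-fold). HSFA4A, HSFC1 and HSFB2A had no other peak of either native list within 1 kb of the gene. The study itself shows HSFA1b at the HSFB2A promoter and at regions of antisense RNAs of HSFB2A and HSFC1. It also counts HSFC1 among targets bound under NS and HS, and likewise AGP15, OXS2 and AT1G29640, named above among the strongest members. The absence of a listed interval is therefore not shown to be an absence of binding.

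Among genes of folding in the endoplasmic reticulum, the BiP genes BIP1 and BIP2 carried broad or repeated peaks and CNX1 a narrow one. BIP2 held a peak 2645 bp wide (38 fragments, 5.62-fold) besides another HS peak of 9.59-fold. BIP1 held 3 coding exon members at 1278, 1992 and 2840 bp from its TSS, with pileups of 26, 25 and 24 fragments and fold enrichments of 4.29, 3.50 and 2.94, and another HS peak at the gene reached 12.5-fold. BIP1 lies in the gene-poor windows counted as pericentromere. Neither BIP1 nor BIP2 had an NS peak within 1 kb. CNX1, the gene of the lectin chaperone calnexin, had an intronic member 204 bp wide at 3.73-fold beside an HS peak of 22.7-fold and 2 NS peaks of up to 7.34-fold.

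Most members inside heat and folding genes, heat shock factor genes included, stood beside another peak at the same gene. Of the 30 members inside genes of the lists, 25 had another HS peak and 14 an NS peak within 1 kb of the gene. The other HS peak could itself be a member. At HSP90.1 the 1.91-fold member had only the 7.30-fold member beside it. Members inside other genes were not counted in this way. AT3G09440, an HSP70 gene, had a member in its 3′ UTR (43 fragments, 3.54-fold), another HS peak of 7.71-fold and an NS peak of 4.15-fold. Hsp89.1 had a member in its 5′ UTR (4.14-fold), another HS peak of 5.08-fold and no NS peak. Of the DnaJ co-chaperone genes, J2 had a coding exon member (3.91-fold), another HS peak of 5.11-fold and 2 NS peaks of up to 4.64-fold. The J2 member was the one 72 bp from an NS peak. J20 had a coding exon member (4.36-fold) with no other HS peak and an NS peak of 3.10-fold. BAG5, a co-chaperone gene of HSP70, had a coding exon member (4.14-fold) as its single peak. The other members of this rank inside genes of the lists were at AT3G14200 (4.72-fold), AT5G02480 (4.36-fold) and Hsp70-2 (3.79-fold). Downstream of the 3′ end stood those of AT4G16660 (231 bp, 3.92-fold), AT5G03030 (198 bp, 3.81-fold), HSP23.6-MITO (421 bp, 3.46-fold) and Hsp70-15 (822 bp, 3.29-fold). The AT4G16660 summit was between genes, and those of AT5G03030, HSP23.6-MITO and Hsp70-15 were in coding exons of other genes.

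Several more genes of this group are named after their values were seen. Hsp70b had a member in its 3′ UTR (30 fragments, 3-fold) and another HS peak of 8.96-fold, with no NS peak. HSP101, the disaggregase gene of acquired thermotolerance, had 2 members inside the gene and 1 just downstream (2.79, 2.63 and 2.48-fold), another HS peak of 6.68-fold and an NS peak of 6.28-fold. HSP70 (AT3G12580) had 3 inside (2.94, 2.88 and 2.52-fold), another HS peak of 10.2-fold and an NS peak of 7.43-fold. BAG6, a co-chaperone gene of the BAG family, had 3 in coding exons (2.44, 1.93 and 1.93-fold) and another HS peak of 8.87-fold, with no NS peak. The widest member of all, 2969 bp, covered the gene body of HSP90.1 with 46 fragments at the summit and a fold enrichment of 1.91, and the gene had no NS peak.

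These gene body members differed from the others in pileup and background. The 30 members inside genes of the heat and folding lists had a median pileup of 28 fragments on a median background of 6.96 scaled control fragments (3.59 to 23.6), and a median fold enrichment of 3.28. The 219 members inside other genes had a median pileup of 19 on a background of 3.59, with 3.68-fold. The background was within 1% of the lowest value the caller allowed for 6 of the 30 (20%), against 239 of all 408 members outside the pericentromere (58.6%). These sets are unlike and overlap. Of the 30, 3 are pericentromeric, and the 408 hold the rest of the 30 as well as members between genes. The controls of the HS list are plants without the fusion that were heated too, so this background was signal without HSFA1b-eYFP. Their median width was 409.5 bp, against 299 bp inside other genes. None of the 30 had an HSE in the summit window and 3 (10%) had a match of at least 8 bases. Of the 30, 20 (66.7%) were in a gene with an HS summit within 250 bp of its own TSS, against 15 of the 219 inside other genes (6.85%). The part of the higher control background in these calls was not tested.

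**Figure D5:**
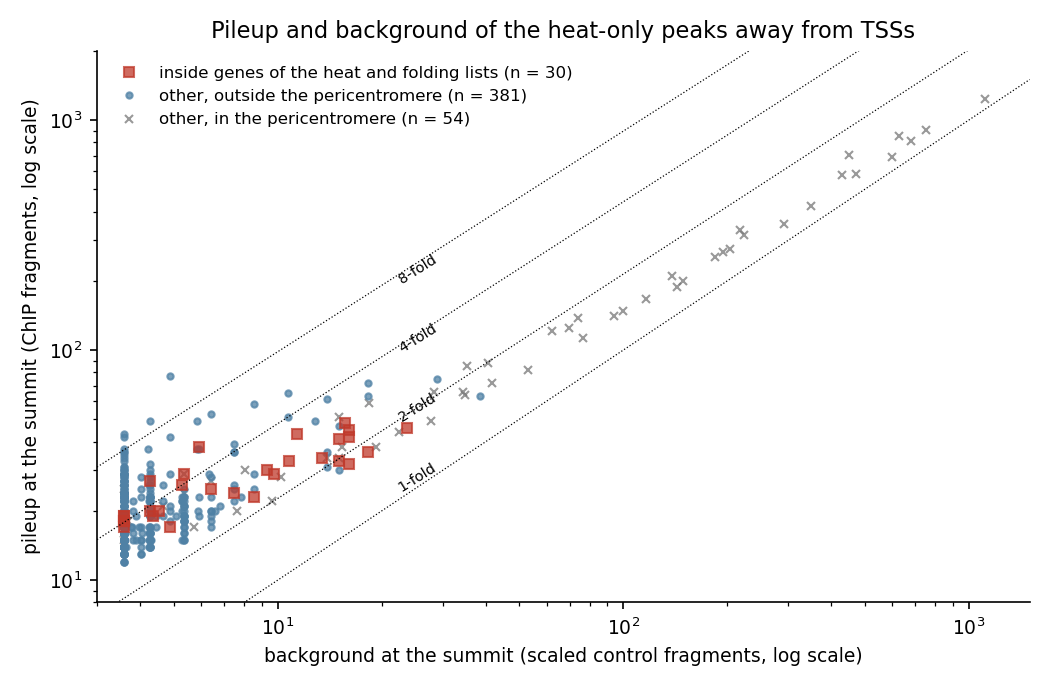
Pileup at the summit (vertical axis, ChIP fragments, log scale) against the background at the summit (horizontal axis, scaled control fragments, log scale) for the 465 heat-only peaks away from TSSs; dotted lines are fold enrichments of 1, 2, 4 and 8. The 30 members inside genes of the heat and folding lists (squares), of which 3 are pericentromeric, reach backgrounds of 23.6. The other pericentromeric members (crosses) reach 1110 at low fold enrichment.

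Over all members, those at heat and folding genes included, most genes had a single member. The 465 members had 418 different genes as their nearest TSS, of which 331 were protein-coding, and 32 genes were nearest to more than 1 member, at most 4. Only 35 members (7.53%) had a nearest gene with another HS peak within 250 bp of its TSS, and 40 (8.60%) one with an NS peak. Outside the pericentromere and the heat lists, 3 genes named here after their values were seen had more than 2 members. RCD1, a regulator gene of responses to reactive oxygen, had 4, from an intron 3115 bp from the TSS to the 3′ UTR at 5254 bp, with pileups of 14, 15, 18 and 15 fragments and fold enrichments of 3.27, 3.18, 4.14 and 3.49. SRO5, of the same gene family, had 3 (23, 16 and 22 fragments; 4.54, 3.71 and 3.62-fold), of which 2 had their summit in ALDH12A1, the gene of proline breakdown that overlaps SRO5 tail to tail. AT4G30350 (SMXL2) had 4, of which 2 were in coding exons and 2 downstream, with fold enrichments of 2.98 to 5.45 and the highest 4637 bp from the TSS. None of the members at RCD1, SRO5 or AT4G30350 was more than 491 bp wide.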

How the data were processed

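Peak lists of 4 pooled ChIP-seq comparisons (16 samples, 8 groups of 2) were used. The members, classes and gene lists were chosen with earlier results of these data known. The authors aligned reads to TAIR10 with GSNAP allowing 1 mismatch, removed duplicates with SAMtools, pooled replicates and called peaks with MACS2 2.0.10.20131028 on paired ends at a q limit of 0.05 (effective genome size 134634692). In the native lists the smaller control was scaled up to the ChIP pool. The authors' summit pileup is a signal in fragments, and their fold enrichment is a ratio of pileup to background with 1 added to both. Their deposited −log10 p and q values were used for filters and description alone. The background at a summit was computed back from pileup and fold enrichment.

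Overlap was at least 1 bp. Coordinates are 1-based. Genes and sequence came from RefSeq TAIR10.1, whose chromosome lengths equal TAIR10 (37899 genes, 27444 protein-coding). The pericentromere was taken as 500 kb windows in steps of 100 kb with under 50% of the median gene number (130). Shares have exact (Clopper-Pearson) 95% intervals and differences Newcombe intervals, which cover counting error only. Comparisons used 2-sided Fisher's exact tests over intervals with Benjamini-Hochberg adjustment over 19 comparisons (scipy 1.17.1, statsmodels 0.14.6, Python 3.11.15). Neighbouring peaks at 1 gene are not independent. Overlap search, motif search and tests were checked on simulated data. Named genes were the 20 members of highest fold enrichment, all with an HSE, the 5 widest, and up to 20 members at heat and folding genes. Others are marked in the text. Alternatives changed peak filters, the overlap and TSS rules, windows, motif forms, 35S thresholds and annotation.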

Additional observations from a re-analysis of the deposited data

How the results depend on the processing

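No paired analysis was possible because each list pools both replicates of a group, and for the same reason no replicate could be left out. The number of heat-only peaks away from TSSs was 364 to 508 over 9 alternatives, against 465. Their share of heat-only peaks was 42.5% with a 500 bp limit and 59.3% with protein-coding TSSs alone, against 54.3%. Of 171 alternative values of the 19 comparisons, 135 kept their direction where called and their side of the threshold. Differences below are percentage points of the heat-only peaks away from TSSs minus the other class, and the causes of these changes were not tested.

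Against heat-only peaks at TSSs, calls were lost for the HSE at −1.05 (51 bp windows), −6.74 (2 units) and −3.72 (2-fold filter outside the pericentromere). Calls were gained for the G-box at −3.65 (51 bp), −7.47 (100 bp to either side), −8.63 (whole interval), −4.67 (width limit) and −4.42 (500 bp TSS limit), for the UPRE at −3.53 (100 bp to either side), and for 35S HS overlap at −12.1 (summits), −10.2 (35S peaks of at least 2-fold) and −8.33 (narrow 35S peaks).

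Against shared peaks, calls were gained for the G-box at −7.03 (100 bp to either side), −12.5 (whole interval) and −5.64 (width limit). The 35S HS call was lost at −5.81 (2-fold filter), −1.87 (3-fold), −8.52 (q of 0.01), −4.13 (width limit), −8.02 (strongest peak per gene), −9.37 (500 bp TSS limit), −3.89 (summits), −7.79 (35S at least 2-fold) and −6.38 (narrow 35S peaks), and the 35S NS call at −0.800 (narrow 35S peaks).

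Against NS-only peaks, calls were gained for the HSE at 2.79 (100 bp to either side), 11.4 (1 mismatch), 11.2 (2 units) and 2.17 (strongest peak per gene). The 35S NS difference reversed to 11.6 (summits) and 13.3 (narrow 35S peaks) and passed at −11.0 (35S at least 2-fold), and the 35S HS difference reversed to 6.41 (summits). Calls were lost inside genes at −0.0452 (3-fold) and at 3′ ends at −7.71 (2-fold filter) and −7.94 (500 bp).

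The HS pool was the shallowest, at 2438702 ChIP fragments, so weak peaks near the caller's limit are the least certain. Absence from the deeper NS list means only that no interval passed the caller's limit there. An HSE in 11 windows limits every comparison of perfect elements.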
